A study of Mus musculus with 12 samples.

Results

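The interferon-stimulated genes described here are a list of 41 genes, named as targets of interferon signalling. The data come from primary tumours of 4 mouse mammary carcinoma lines. This list, and the pathway and marker lists below, were chosen with earlier results of these data known. Counts set beside the share of all genes therefore describe the lists and are not an independent test of them. A gene counted as measured when at least 3 probesets of the exon array (groups of probes that each read a short stretch of a gene) carried its symbol and no other. By that rule 33 of the 41 genes were measured, with 383 probesets in all and 4 to 27 per gene, among 15025 genes of the series. Ifit1 had 2 such probesets and Ifit3 had 1. Oas1a, Isg15, Usp18, Herc6, Xaf1 and Ifi27l2a had 0 and were not analysed here.

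The lines 67NR, 168FARN, 4T07 and 4T1 derive from mammary carcinoma of the BALB/c mouse and differ in how far their cells are known to spread. As background, 67NR tumours are known to stay in the breast, 168FARN cells to reach lymph nodes, 4T07 cells to reach the lung without forming nodules, and 4T1 cells to form metastases in lung and other organs. In all groups the hosts were BALB/c females 3 months old, and cells of 1 line were placed in a mammary fat pad. For 67NR 8 mice were injected, for 168FARN 11, for 4T07 15 and for 4T1 13, and tumours were taken at an average size between 1 and 2 cm. Each line gave 3 arrays, and the labels do not say whether the 3 came from separate animals. The p-values thus measure how far these samples spread, and that spread may be technical. Each tumour held host cells beside carcinoma cells, and each type of behaviour is represented by 1 line.

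Interferons are secreted proteins that cells release on sensing viral or misplaced nucleic acid. Type I interferons act through the receptor Ifnar1 and Ifnar2 to assemble a complex with Stat2 and Irf9 that binds the interferon-stimulated response element, and interferon-gamma acts through Ifngr1 and Ifngr2 on genes with a gamma-activated site. The induced genes encode sensors, antiviral enzymes and GTPases that attack pathogens inside the cell, and in tumours they are read in carcinoma, stromal and immune cells alike.

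The DNA motifs that these pathways read stand close to the start of many of the listed genes. The stretches printed here come from members whose levels are given on every array, so that a reader can see the element beside the values. They are RefSeq sequence of build GRCm38.p6, 5′ to 3′ on the strand of the gene, with capitals on the core of the response element (GAAANNGAA or its reverse complement) or, in Igtp and Ifit2, of the gamma-activated site (TTCNNNGAA).
Igtp, chr11:58199491-58199550, plus strand: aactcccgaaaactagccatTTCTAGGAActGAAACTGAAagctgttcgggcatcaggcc
Irgm1, chr11:48871416-48871470, minus strand: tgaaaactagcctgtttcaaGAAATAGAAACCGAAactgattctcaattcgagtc
Gbp3, chr3:142559980-142560034, plus strand: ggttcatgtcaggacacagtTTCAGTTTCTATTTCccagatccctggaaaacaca
Gbp2, chr3:142620585-142620633, plus strand: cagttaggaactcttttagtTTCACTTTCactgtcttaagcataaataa
Ifih1, chr2:62646339-62646387, minus strand: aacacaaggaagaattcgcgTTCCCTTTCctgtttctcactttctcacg
Ifi44, chr3:151749885-151749933, minus strand: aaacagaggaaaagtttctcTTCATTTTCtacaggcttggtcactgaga
Rsad2, chr12:26456543-26456591, minus strand: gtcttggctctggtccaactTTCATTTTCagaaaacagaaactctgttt
Ifit2, chr19:34550444-34550481, plus strand: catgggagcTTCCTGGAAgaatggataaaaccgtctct

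In a window from 250 bases before to 50 after the start site, available for 31 of the 41 listed genes, the core of the response element was found on either strand in 19 (61.3%), against 9.8% of 27025 genes with such a window. The core of the gamma-activated site was found in 7 of the 31 (22.6%), against 9.6% of all genes. Of the 25 measured genes with a window, 15 held the first motif (60.0%) and 6 the second (24.0%). In Irgm1 and Gbp3 a pair of response element cores overlap, and in Igtp a gamma-activated core stands just upstream of a response element core. Ifih1 has a second core past its start site, outside the printed stretch. The printed Ifit2 window held the gamma-activated core and no response element core, which says only that those letters are not in this window. A match describes sequence and was not tested for binding.

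**Figure D1:**
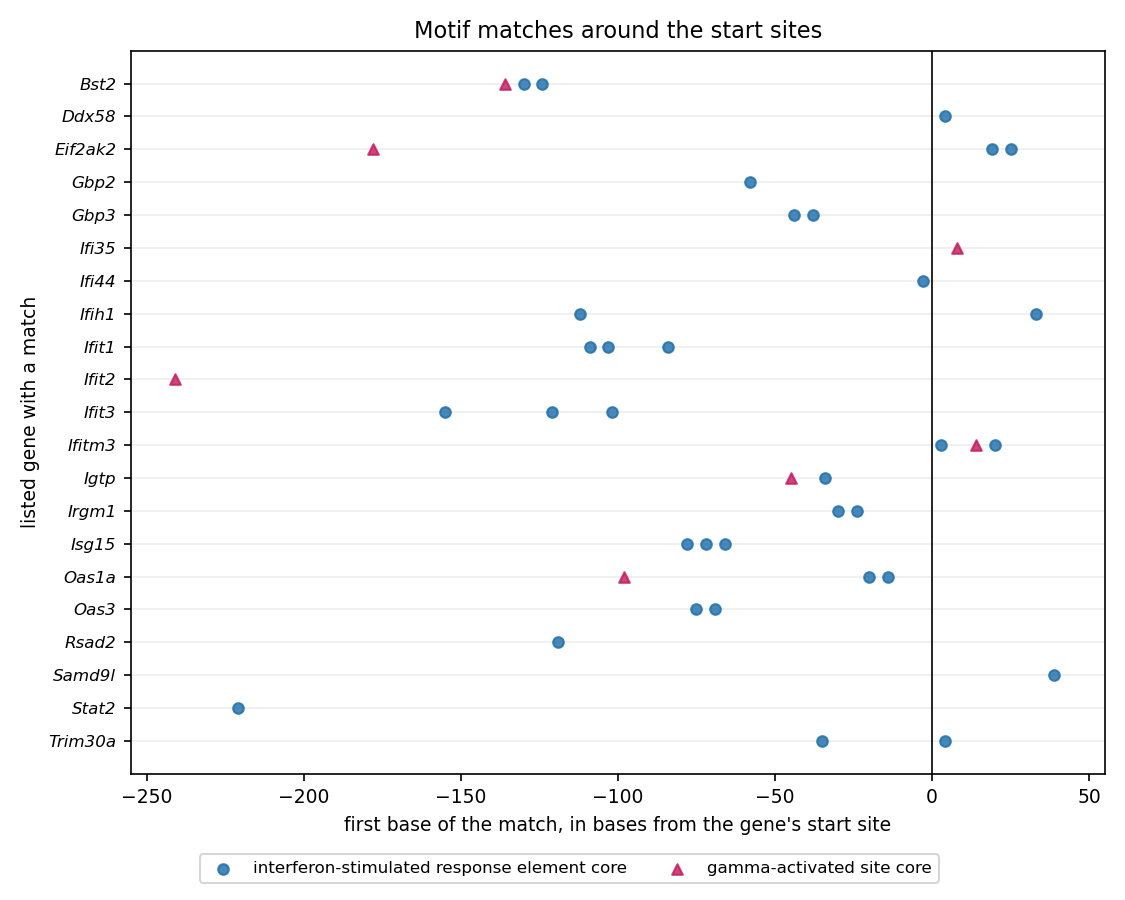
Position of each motif match, in bases from the start site on the x axis, for each listed gene with a match on the y axis; circles are cores of the response element and triangles cores of the gamma-activated site. Of the 31 genes with a window, 19 hold a circle and 7 a triangle.

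Levels are log2 values as deposited, and a gene's level is the median of its probesets. The array medians lay between 7.21 and 7.57. As background served 335 olfactory receptor genes, which tumours are not thought to express. Their median was 3.12, and their 95th percentile, 5.08, is the background level used here. No measured gene of the list lay under 5.08 in every line, and the lowest line mean was 5.13, for Mx2 in 67NR. A level does not rank genes by amount of RNA, because probes differ in brightness. As a check of the labelled tissue, keratins and other epithelial markers (10 measured) had a mean level of 5.88 in 67NR, 6.61 in 168FARN, 8.49 in 4T07 and 8.86 in 4T1, and 15 macrophage and monocyte markers had 10.09, 9.57, 9.67 and 9.88. The 168FARN arrays stood apart from one another in 14 skeletal muscle markers, with mean levels of 5.50, 7.98 and 8.93 on arrays 1, 2 and 3, against 5.32 to 6.37 on the other 9 arrays. Whole-list and interferon-gamma target counts of calls in a single comparison with 168FARN are therefore also given with array 1 as its only array. So are the 168FARN calls of pathway genes whose change against 67NR is printed. That array is then assumed to vary like the arrays of the other lines. The F-test, the ranking of line means, and counts by role, at an unadjusted p, over several comparisons or at 2-fold use all 168FARN arrays.

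By line means, the list was lowest in 67NR tumours and highest in 168FARN or 4T07 tumours. The mean of 28 of the 33 measured genes was lowest in 67NR and that of the other 5 in 4T1. The highest mean was in 168FARN for 14 genes, in 4T07 for 19 and in the other lines for 0. The 168FARN means rest in part on arrays 2 and 3. On 168FARN array 1, Zbp1 (10.02), Ifi44 (9.92) and Rtp4 (9.04) lay below their 4T07 means (10.24, 10.29 and 9.51). Dhx58 (8.04) lay above its 4T07 mean (7.95). By limma's moderated F-test over the 4 lines, 31 of 33 genes differed at an adjusted p under 0.05, where 42.0% of all genes did. Samd9l and Ifitm3 did not pass it. Against 67NR, 29 genes were higher and 0 lower in 168FARN (13.5% and 11.2% of all genes), 26 and 0 in 4T07 (11.0% and 12.7%), and 18 and 1 in 4T1 (9.38% and 13.0%). The median change of the 33 genes was 0.94 in 168FARN, 1.37 in 4T07 and 0.69 in 4T1 on the log2 scale, against 0.04, -0.04 and -0.04 over all genes. At an unadjusted p under 0.05, limma gave 31 higher and 0 lower in 168FARN (19.6% and 16.0% of all genes), 30 and 0 in 4T07 (15.0% and 19.0%), and 23 and 2 in 4T1 (13.8% and 19.3%). The 29 calls of 168FARN fell to 17 without 168FARN array 3 and 19 without 67NR array 3. For 168FARN, 24.7% of all genes were called in either direction with all arrays. That share was 20% without 67NR array 3 and 21.3% without 168FARN array 3. With array 1 as its only array, 7 genes were called, all higher (Zbp1, Dhx58, Stat2, Parp9, Parp12, Ifi44 and Rtp4), where 6.46% of all genes were higher and 5.83% lower. In that fit 32 of 33 changes lay above 0 and the median was 0.59. The 19 calls of 4T1 fell to 12 without 67NR array 2 or 4T1 array 3. Of all genes, 22.3% were called there with all arrays, 16.2% without 67NR array 2 and 16.5% without 4T1 array 3. In what follows, a call that ended when 1 array was left out is given with that array and the adjusted p without it. These 3 comparisons share the 67NR arrays, so a high or low 67NR value enters all of them. In bulk tumour RNA, more cells that carry a transcript and more transcript per cell cannot be told apart.

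**Figure D2:**
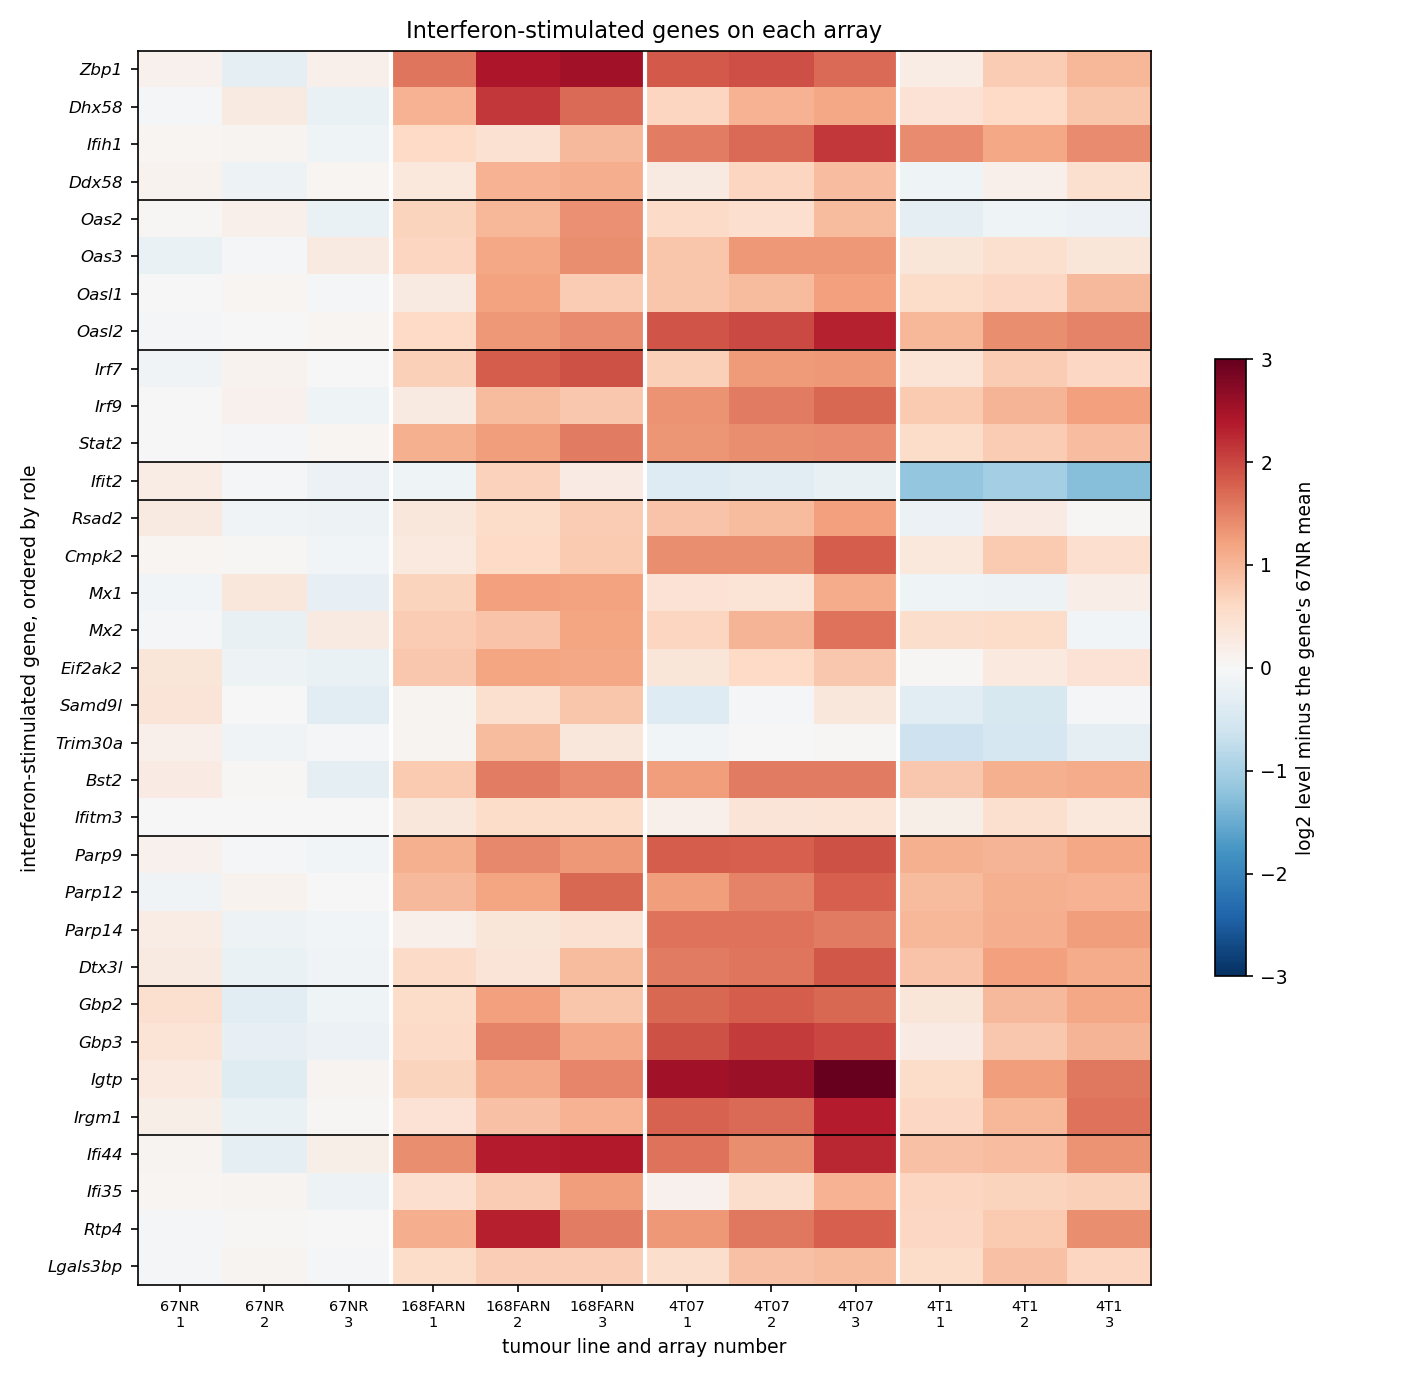
Level of each of the 33 measured genes (rows, ordered by role, with lines between roles) on each of the 12 arrays (columns, by line and array number), as the log2 level minus the gene's 67NR mean. Red is above and blue below the 67NR mean; most rows are red on the 168FARN and 4T07 arrays, and the Ifit2 row is blue on all 4T1 arrays.

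Higher calls in all 3 comparisons with 67NR were made for 16 genes, which include Oasl1, Oasl2, Irf9, Stat2, Bst2, Parp9, Parp12, Igtp and Lgals3bp, where 2.60% of all genes were called higher in all 3. A further 11 were called higher in 2 comparisons (6.52% of all genes), and Ddx58, Mx1 and Ifitm3 in 1 (13.1%). Ifit2, Samd9l and Trim30a were higher in none of the 3, as were 77.8% of all genes. Among the genes called, a change of at least 2-fold was reached by 16 in 168FARN, 22 in 4T07 and 11 in 4T1. Of all genes, 8.24%, 9.53% and 9.18% were called with such a change in either direction. The counts of this paragraph use all 168FARN arrays, and fewer genes were called in 168FARN with its array 1 alone, as given above.

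**Figure D3:**
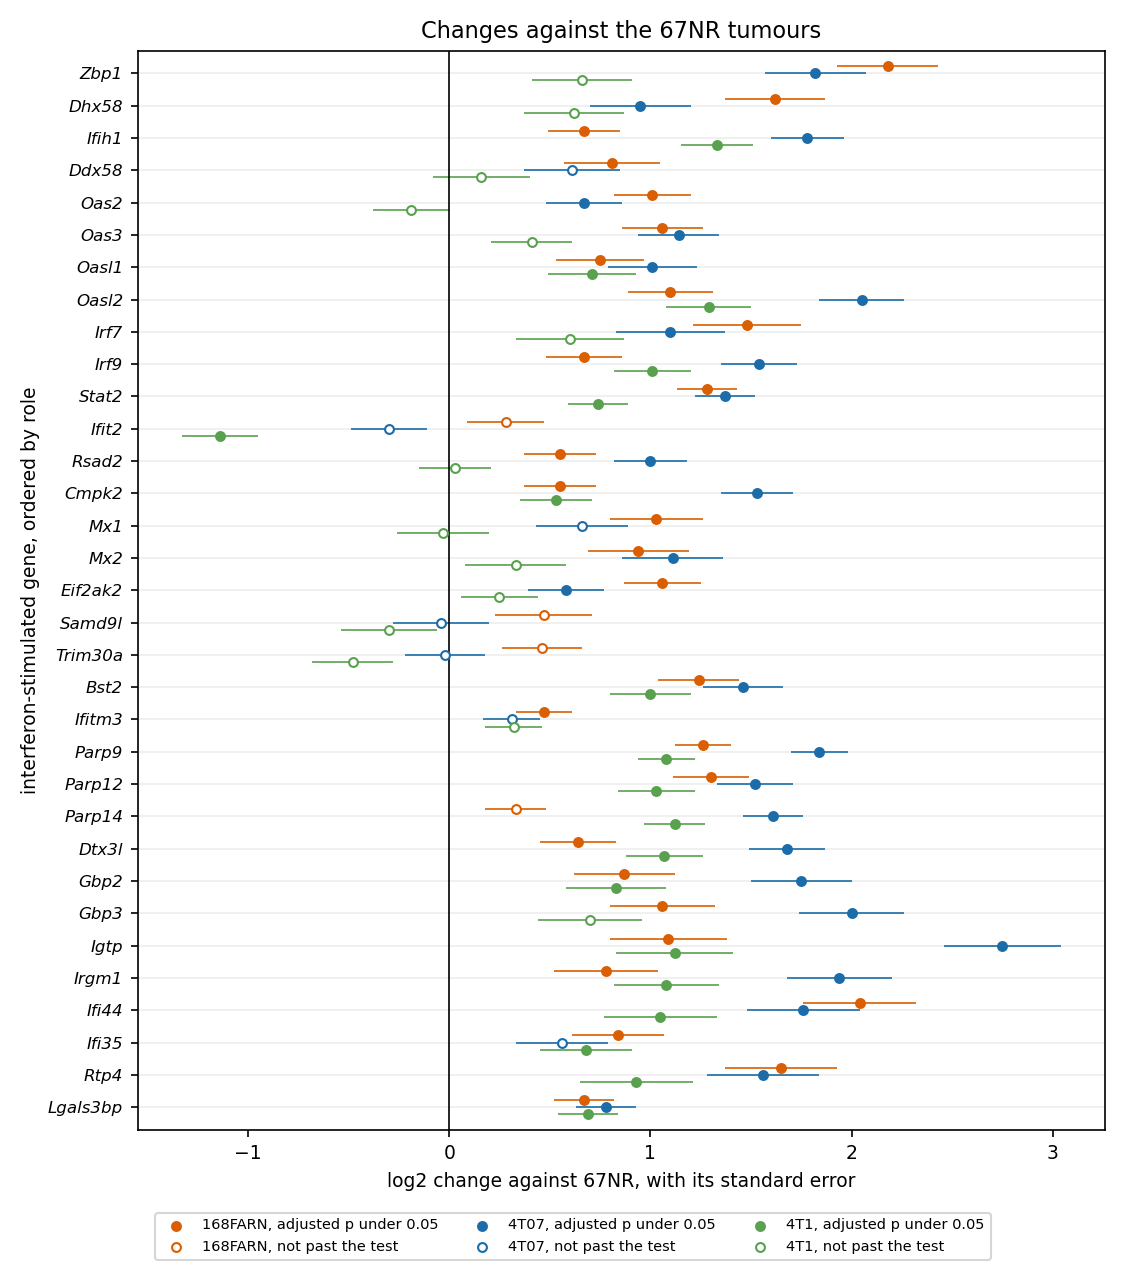
Log2 change against 67NR with its standard error (x axis) for each measured gene (y axis, ordered by role) in 168FARN, 4T07 and 4T1, 3 arrays a line. Filled points passed the test and open points did not; Igtp in 4T07 lies farthest right at 2.75 and Ifit2 in 4T1 farthest left at -1.14.

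All 4 measured sensors of nucleic acid rose in 168FARN, 3 of 4 in 4T07 and 1 of 4 in 4T1. For this and each count by role below, 13.5% of all genes were higher in 168FARN, 11.0% in 4T07 and 9.38% in 4T1. The 1 of 4 sensors in 4T1 is near that share. Zbp1, which senses Z-form nucleic acid and can start necroptosis, had levels of 8.54, 8.13 and 8.57 on the 67NR arrays, 10.02, 10.83 and 10.93 on 168FARN, 10.24, 10.35 and 10.12 on 4T07 and 8.63, 9.18 and 9.41 on 4T1. Dhx58 (LGP2), a helicase that tunes the RNA sensors, had levels of 6.95, 7.26 and 6.79 on the 67NR arrays, 8.04, 9.13 and 8.70 on 168FARN, 7.65, 8.04 and 8.16 on 4T07 and 7.44, 7.60 and 7.84 on 4T1. Every 168FARN and 4T07 array of both genes lay above every 67NR array. Zbp1 was 4.53-fold higher in 168FARN (log2 change 2.18 ± 0.25, adjusted p = 4.29e-05) and 3.54-fold higher in 4T07 (1.82 ± 0.25, adjusted p = 0.000148), and its 4T1 change of 0.66 ± 0.25 (adjusted p = 0.0807) did not pass the test. Dhx58 changed by 1.62 ± 0.25 (adjusted p = 0.000403) in 168FARN, by 0.95 ± 0.25 (adjusted p = 0.0136) in 4T07 and by 0.62 ± 0.25 (adjusted p = 0.0932) in 4T1. Ifih1 (MDA5), the sensor of long double-stranded RNA, followed another order, with levels of 7.04, 7.08 and 6.86 on the 67NR arrays, 7.58, 7.44 and 7.96 on 168FARN, 8.53, 8.70 and 9.10 on 4T07 and 8.41, 8.15 and 8.40 on 4T1. The arrays of no pair of lines overlapped, and the order of the means was 67NR, 168FARN, 4T1 and 4T07. Ifih1 rose by 0.67 ± 0.18 (adjusted p = 0.0165) in 168FARN, 1.78 ± 0.18 (adjusted p = 1.24e-05) in 4T07 and 1.33 ± 0.18 (adjusted p = 0.000153) in 4T1. Ddx58 (RIG-I), which reads RNA ends, rose in 168FARN (0.81 ± 0.24, adjusted p = 0.0231), with changes of 0.61 ± 0.24 (adjusted p = 0.0824) in 4T07 and 0.16 ± 0.24 (adjusted p = 0.695) in 4T1. The Ifih1 call in 168FARN ended without 67NR array 3 or 168FARN array 3 (adjusted p = 0.0618 to 0.0724). The Ddx58 call in 168FARN ended without 67NR array 2 or 168FARN array 2 or 3 (adjusted p = 0.0824 to 0.0896). The Dhx58 call in 4T07 ended without 67NR array 3 or 4T07 array 3 (adjusted p = 0.0503 to 0.0537).

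The 2-5A synthetase family, whose Oas enzymes make the short adenylate chains that switch on the RNA-degrading RNase L, was higher in 168FARN and 4T07 in all 4 measured members and in 4T1 in 2 of 4. Oasl2, a relative of these enzymes, had levels of 7.74, 7.76 and 7.85 on the 67NR arrays, 8.38, 9.07 and 9.19 on 168FARN, 9.66, 9.75 and 10.10 on 4T07 and 8.77, 9.17 and 9.27 on 4T1. The 67NR arrays lay below all others, and the 4T07 arrays lay above all others. Oasl2 rose by 1.10 ± 0.21 (adjusted p = 0.00226) in 168FARN, 2.05 ± 0.21 (adjusted p = 1.44e-05) or 4.15-fold in 4T07, and 1.29 ± 0.21 (adjusted p = 0.000682) in 4T1. Oas2 and Oas3, which make the chains, rose by 1.01 ± 0.19 (adjusted p = 0.00167) and 1.06 ± 0.20 (adjusted p = 0.00213) in 168FARN and by 0.67 ± 0.19 (adjusted p = 0.0196) and 1.14 ± 0.20 (adjusted p = 0.00112) in 4T07. In 4T1 their changes were -0.19 ± 0.19 (adjusted p = 0.536) and 0.41 ± 0.20 (adjusted p = 0.184), and 6 of the 20 Oas2 probesets lay higher than in 67NR. Oasl1, known in mouse to restrain Irf7 translation, rose by 0.75, 1.01 and 0.71 in the 3 lines (adjusted p = 0.022, 0.0039 and 0.0304). The Oasl1 call in 168FARN ended without 67NR array 1 or 3 or 168FARN array 2 or 3 (adjusted p = 0.0549 to 0.094). The Oas2 call in 4T07 ended without 67NR array 3 or 4T07 array 3 (adjusted p = 0.0721 to 0.0798). The Oasl1 call in 4T1 ended without 67NR array 1, 2 or 3 or 4T1 array 2 or 3 (adjusted p = 0.0555 to 0.129).

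Of the transcription factors of the response, all 3 measured rose in 168FARN and 4T07 and 2 of 3 in 4T1. Stat2, the type I specific partner in the complex, had line means of 8.55 ± 0.06, 9.84 ± 0.25, 9.93 ± 0.05 and 9.29 ± 0.19 in 67NR, 168FARN, 4T07 and 4T1 (SD, n = 3), and each of its 27 probesets was higher than in 67NR in all 3 lines. Its changes were 1.28 ± 0.15 (adjusted p = 6.27e-05), 1.37 ± 0.15 (adjusted p = 2.78e-05) and 0.74 ± 0.15 (adjusted p = 0.00355). Irf9, the DNA-binding part of the complex, had means of 8.75 ± 0.13, 9.42 ± 0.35, 10.29 ± 0.20 and 9.76 ± 0.23 and rose by 0.67 ± 0.19 (adjusted p = 0.0211), 1.54 ± 0.19 (adjusted p = 6.38e-05) and 1.01 ± 0.19 (adjusted p = 0.00179). Irf7, which amplifies type I interferon production, rose by 1.48 ± 0.27 (adjusted p = 0.00156) in 168FARN and 1.10 ± 0.27 (adjusted p = 0.0104) in 4T07, and its change of 0.60 ± 0.27 (adjusted p = 0.145) in 4T1 did not pass the test. The Irf7 values of 168FARN spread from 9.59 on array 1 to 10.80 on array 3. The Irf9 call in 168FARN ended without 67NR array 1 or 3 or 168FARN array 2 or 3 (adjusted p = 0.0539 to 0.0885).

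Ifit2, an antiviral protein built of tetratricopeptide repeats, was the 1 measured gene called lower than 67NR in any of the 3 lines. It had levels of 8.76, 8.48 and 8.36 on the 67NR arrays, 8.42, 9.24 and 8.78 on 168FARN, 8.16, 8.22 and 8.31 on 4T07 and 7.38, 7.53 and 7.27 on 4T1. All 4T1 arrays lay below all 9 others. Ifit2 was 2.21-fold lower in 4T1 than in 67NR (-1.14 ± 0.19, adjusted p = 0.000744), with 0 of 6 probesets higher, and its changes in 168FARN and 4T07 were 0.28 ± 0.19 (adjusted p = 0.337) and -0.30 ± 0.19 (adjusted p = 0.304). Ifit1 and Ifit3, its neighbours in the family, had too few probesets for the main test and were taken from the fit over all genes with 1 or more probesets. There Ifit1 changed by 2.25 ± 0.34 in 168FARN (adjusted p = 0.000486), 1.50 ± 0.34 in 4T07 (0.00666) and 0.38 ± 0.34 in 4T1 (0.511). The single Ifit3 probeset changed by 1.53 ± 0.56 (0.0712), 0.96 ± 0.56 (0.276) and -2.07 ± 0.56 (0.02), and its 4T1 values of 4.00, 1.75 and 3.53 lay under the background of 5.08.

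Of 9 other antiviral effectors, 7 rose in 168FARN, 5 in 4T07 and 2 in 4T1, and the 2 in 4T1 are near the share of all genes (9.38%). Rsad2 (viperin), which makes a chain-terminating nucleotide, had levels of 6.95, 6.58 and 6.52 on the 67NR arrays, 7.02, 7.24 and 7.45 on 168FARN, 7.53, 7.64 and 7.90 on 4T07 and 6.50, 6.93 and 6.71 on 4T1. Cmpk2, the nucleotide kinase encoded beside it, had levels of 6.69, 6.68 and 6.55 on the 67NR arrays, 6.94, 7.23 and 7.42 on 168FARN, 8.03, 8.04 and 8.45 on 4T07 and 6.95, 7.42 and 7.15 on 4T1. For both genes the 4T07 arrays were the highest of all 12, and the 4T1 arrays overlapped 67NR in Rsad2 but not in Cmpk2. Rsad2 rose by 0.55 ± 0.18 (adjusted p = 0.0364) in 168FARN and 1.00 ± 0.18 (adjusted p = 0.00103) in 4T07, and its 4T1 change was 0.03 ± 0.18 (adjusted p = 0.926). Cmpk2 rose by 0.55 ± 0.18 (adjusted p = 0.0351), 1.53 ± 0.18 (adjusted p = 3.32e-05) and 0.53 ± 0.18 (adjusted p = 0.0453). The Rsad2 call in 168FARN ended without 67NR array 2 or 3, 168FARN array 2 or 3 or 4T1 array 3 (adjusted p = 0.0503 to 0.129). The Cmpk2 call in 168FARN ended without 67NR array 1, 2 or 3 or 168FARN array 2 or 3 (adjusted p = 0.0724 to 0.128). The Cmpk2 call in 4T1 ended without any 1 array other than 168FARN array 1, 168FARN array 3, 4T07 array 1, 4T07 array 3 or 4T1 array 1 (adjusted p = 0.0516 to 0.177).

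Mx1 and Mx2, of a family of dynamin-like GTPases known to block viral replication, were among the 4 genes with the lowest levels. Mx1 had levels of 5.94, 6.36 and 5.78 on the 67NR arrays, 6.69, 7.25 and 7.23 on 168FARN, 6.47, 6.45 and 7.14 on 4T07 and 5.89, 5.87 and 6.22 on 4T1. Mx2 had levels of 5.06, 4.90 and 5.41 on the 67NR arrays, 5.88, 5.99 and 6.32 on 168FARN, 5.78, 6.16 and 6.77 on 4T07 and 5.66, 5.67 and 5.04 on 4T1. All 168FARN and 4T07 arrays of both genes lay above all 67NR arrays, and the 4T1 arrays overlapped 67NR. Mx2 lay under the background of 5.08 on 67NR arrays 1 and 2 and on 4T1 array 3. The mean over the arrays of 6 of its 17 probesets also lay under background, so its sizes of change are uncertain. Mx1 rose by 1.03 ± 0.23 (adjusted p = 0.00528) in 168FARN, and its changes of 0.66 ± 0.23 (adjusted p = 0.0533) in 4T07 and -0.03 ± 0.23 (adjusted p = 0.942) in 4T1 did not pass the test. Mx2 rose by 0.94 ± 0.25 (adjusted p = 0.0157) and 1.11 ± 0.25 (adjusted p = 0.00597) in 168FARN and 4T07, and changed by 0.33 ± 0.25 (adjusted p = 0.411) in 4T1. Eif2ak2 (PKR), the kinase that halts translation on double-stranded RNA, rose by 1.06 ± 0.19 (adjusted p = 0.00152) in 168FARN and 0.58 ± 0.19 (adjusted p = 0.0451) in 4T07, where its arrays overlapped 67NR, and changed by 0.25 ± 0.19 (adjusted p = 0.411) in 4T1. The Mx2 call in 168FARN ended without 67NR array 2 or 168FARN array 3 (adjusted p = 0.0615 to 0.0646). The Eif2ak2 call in 4T07 ended without any 1 array other than 67NR array 1, 168FARN array 1 or 4T07 array 1 (adjusted p = 0.0511 to 0.154).

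Ifitm3, which blocks fusion of viruses in endosomes, and Trim30a were among the 4 genes with the highest levels. Ifitm3 had levels of 12.32, 12.35 and 12.34 on the 67NR arrays, 12.66, 12.88 and 12.88 on 168FARN, 12.49, 12.71 and 12.75 on 4T07 and 12.50, 12.80 and 12.65 on 4T1. Every array of the other 3 lines lay above every 67NR array, yet the change passed the test in 168FARN (0.47 ± 0.14, adjusted p = 0.0241) and not in 4T07 (0.31 ± 0.14, adjusted p = 0.13) or 4T1 (0.32 ± 0.14, adjusted p = 0.131). Trim30a, a ubiquitin ligase of the TRIM family, was read by probesets that carry the older symbol Trim30 and has close relatives in the mouse genome, so its signal may not be its own. It had levels of 10.66, 10.40 and 10.48 on the 67NR arrays, 10.60, 11.47 and 10.85 on 168FARN, 10.43, 10.50 and 10.55 on 4T07 and 9.88, 10.00 and 10.23 on 4T1. Its arrays overlapped 67NR in 168FARN and 4T07, the 4T1 arrays lay below 67NR, and no change against 67NR passed the test. Those changes were 0.46 ± 0.20 (adjusted p = 0.112), -0.02 ± 0.20 (adjusted p = 0.966) and -0.48 ± 0.20 (adjusted p = 0.11). Samd9l, an antiviral protein, likewise did not pass in any line, with changes of 0.47, -0.04 and -0.30 (adjusted p = 0.189, 0.935 and 0.445). Bst2 (tetherin), which holds budding virus at the cell surface, rose by 1.24 ± 0.20 (adjusted p = 0.000672), 1.46 ± 0.20 (adjusted p = 0.000167) and 1.00 ± 0.20 (adjusted p = 0.00301). The Ifitm3 call in 168FARN ended without 67NR array 1, 2 or 3 or 168FARN array 2 or 3 (adjusted p = 0.0594 to 0.0744).

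The ADP-ribosyl transferases Parp9, Parp12 and Parp14, with the ubiquitin ligase Dtx3l that pairs with Parp9, rose in 3 of 4 cases in 168FARN and in all 4 in 4T07 and 4T1. Parp9 had means of 7.93 ± 0.12, 9.19 ± 0.18, 9.78 ± 0.06 and 9.01 ± 0.07 in 67NR, 168FARN, 4T07 and 4T1 (SD, n = 3). Its changes were 1.26 ± 0.14 (adjusted p = 2.65e-05), 1.84 ± 0.14 (adjusted p = 8.17e-07) and 1.08 ± 0.14 (adjusted p = 7.6e-05), and its adjusted p in 4T07 was the smallest of the list there. Dtx3l rose by 0.64 ± 0.19 (adjusted p = 0.0227), 1.68 ± 0.19 (adjusted p = 2.52e-05) and 1.07 ± 0.19 (adjusted p = 0.00101). Parp14 had levels of 9.22, 8.85 and 8.92 on the 67NR arrays, 9.16, 9.37 and 9.45 on 168FARN, 10.62, 10.62 and 10.57 on 4T07 and 9.99, 10.10 and 10.25 on 4T1. Its arrays in 168FARN overlapped 67NR while those of 4T07 and 4T1 lay above both. It changed by 0.33 ± 0.15 (adjusted p = 0.124) in 168FARN, 1.61 ± 0.15 (adjusted p = 4.88e-06) in 4T07 and 1.12 ± 0.15 (adjusted p = 0.000102) in 4T1. Parp12, a zinc-finger member, rose by 1.30 ± 0.19 (adjusted p = 0.000329), 1.52 ± 0.19 (adjusted p = 8e-05) and 1.03 ± 0.19 (adjusted p = 0.00175). The Dtx3l call in 168FARN ended without 67NR array 2 or 3 or 168FARN array 3 (adjusted p = 0.0719 to 0.0954).

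The guanylate-binding and immunity-related GTPases, which coat and break the vacuoles of intracellular pathogens and respond strongly to interferon-gamma, had a median change of 1.97 in 4T07, against 1.37 over the whole list. All 4 rose in 168FARN and 4T07 and 3 of 4 in 4T1. Igtp (Irgm3) had levels of 8.10, 7.44 and 7.90 on the 67NR arrays, 8.47, 8.95 and 9.27 on 168FARN, 10.33, 10.41 and 10.96 on 4T07 and 8.35, 9.07 and 9.39 on 4T1. Irgm1, a regulator of the other immunity-related GTPases, had levels of 9.27, 8.90 and 9.13 on the 67NR arrays, 9.54, 9.97 and 10.14 on 168FARN, 10.88, 10.80 and 11.45 on 4T07 and 9.72, 10.09 and 10.74 on 4T1. For both genes the 4T07 arrays lay above those of every other line, and the 168FARN and 4T1 arrays overlapped each other and lay above 67NR. Igtp was 6.75-fold higher in 4T07 than in 67NR (2.75 ± 0.29, adjusted p = 1.45e-05), with changes of 1.09 ± 0.29 (adjusted p = 0.0141) in 168FARN and 1.12 ± 0.29 (adjusted p = 0.0127) in 4T1. Irgm1 rose by 0.78 ± 0.26 (adjusted p = 0.0411), 1.94 ± 0.26 (adjusted p = 0.00011) and 1.08 ± 0.26 (adjusted p = 0.00818) in 168FARN, 4T07 and 4T1.

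Gbp3 had levels of 8.91, 8.25 and 8.31 on the 67NR arrays, 9.07, 9.97 and 9.62 on 168FARN, 10.39, 10.59 and 10.49 on 4T07 and 8.73, 9.31 and 9.52 on 4T1. Gbp2 had levels of 10.35, 9.56 and 9.74 on the 67NR arrays, 10.44, 11.10 and 10.72 on 168FARN, 11.60, 11.70 and 11.60 on 4T07 and 10.24, 10.85 and 11.05 on 4T1. The 67NR array 1 was the highest of its line in both, and it lay within the 4T1 range. Gbp3 rose by 1.06 ± 0.26 (adjusted p = 0.00867) in 168FARN and 2.00 ± 0.26 (adjusted p = 8.53e-05) in 4T07, with a change of 0.70 ± 0.26 (adjusted p = 0.0724) in 4T1. Gbp2 rose by 0.87 ± 0.25 (adjusted p = 0.0196), 1.75 ± 0.25 (adjusted p = 0.000169) and 0.83 ± 0.25 (adjusted p = 0.0269) in the 3 lines. These GTPases belong to families of similar genes, and cross-reading between relatives was not tested. The Gbp2 call in 168FARN ended without 67NR array 2 or 3 or 168FARN array 2 (adjusted p = 0.0645 to 0.0876). The Igtp call in 168FARN ended without 67NR array 2 or 168FARN array 3 (adjusted p = 0.06 to 0.0648). The Irgm1 call in 168FARN ended without 67NR array 1, 2 or 3, 168FARN array 2 or 3 or 4T1 array 2 (adjusted p = 0.0528 to 0.135). The Gbp2 call in 4T1 ended without 67NR array 2 or 3 or 4T1 array 2 or 3 (adjusted p = 0.0831 to 0.119). The Igtp call in 4T1 ended without 67NR array 2 or 4T1 array 3 (adjusted p = 0.062 to 0.0644).

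Among 4 other genes induced by interferon, all rose in 168FARN and 4T1 and 3 of 4 in 4T07. Ifi44, a cytoplasmic protein, had levels of 8.62, 8.27 and 8.70 on the 67NR arrays, 9.92, 10.88 and 10.91 on 168FARN, 10.17, 9.92 and 10.78 on 4T07 and 9.41, 9.45 and 9.88 on 4T1. Rtp4, a receptor-transporting protein, had levels of 7.91, 7.99 and 7.95 on the 67NR arrays, 9.04, 10.29 and 9.48 on 168FARN, 9.26, 9.53 and 9.75 on 4T07 and 8.57, 8.74 and 9.34 on 4T1. For both, all arrays of the other 3 lines lay above all 67NR arrays, and 168FARN array 1 was the lowest of its line. Ifi44 was 4.12-fold higher in 168FARN (2.04 ± 0.28, adjusted p = 0.00017) and changed by 1.76 ± 0.28 (adjusted p = 0.000447) in 4T07 and 1.05 ± 0.28 (adjusted p = 0.0156) in 4T1. Rtp4 changed by 1.65 ± 0.28 (adjusted p = 0.000793), 1.56 ± 0.28 (adjusted p = 0.00108) and 0.93 ± 0.28 (adjusted p = 0.028). Lgals3bp, a secreted glycoprotein that binds galectins, had levels of 10.58, 10.71 and 10.60 on the 67NR arrays, 11.17, 11.37 and 11.37 on 168FARN, 11.15, 11.52 and 11.58 on 4T07 and 11.18, 11.51 and 11.27 on 4T1. The 67NR arrays lay below all others, and the other 3 lines overlapped one another. It rose by 0.67 ± 0.15 (adjusted p = 0.00607), 0.78 ± 0.15 (adjusted p = 0.00217) and 0.69 ± 0.15 (adjusted p = 0.00535). Ifi35, a leucine zipper protein, rose by 0.84 ± 0.23 (adjusted p = 0.0153) in 168FARN and 0.68 ± 0.23 (adjusted p = 0.0467) in 4T1, and its change of 0.56 ± 0.23 (adjusted p = 0.0929) in 4T07 did not pass the test. The Ifi35 call in 168FARN ended without 67NR array 3 or 168FARN array 3 (adjusted p = 0.0566 to 0.0676). The Ifi44 call in 4T1 ended without 67NR array 2 or 4T1 array 3 (adjusted p = 0.0668 to 0.0707). The Rtp4 call in 4T1 ended without 67NR array 1, 2 or 3 or 4T1 array 3 (adjusted p = 0.0641 to 0.128). The Ifi35 call in 4T1 ended without any 1 array other than 168FARN array 1, 168FARN array 3, 4T07 array 1 or 4T07 array 3 (adjusted p = 0.0569 to 0.135).

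**Figure D4:**
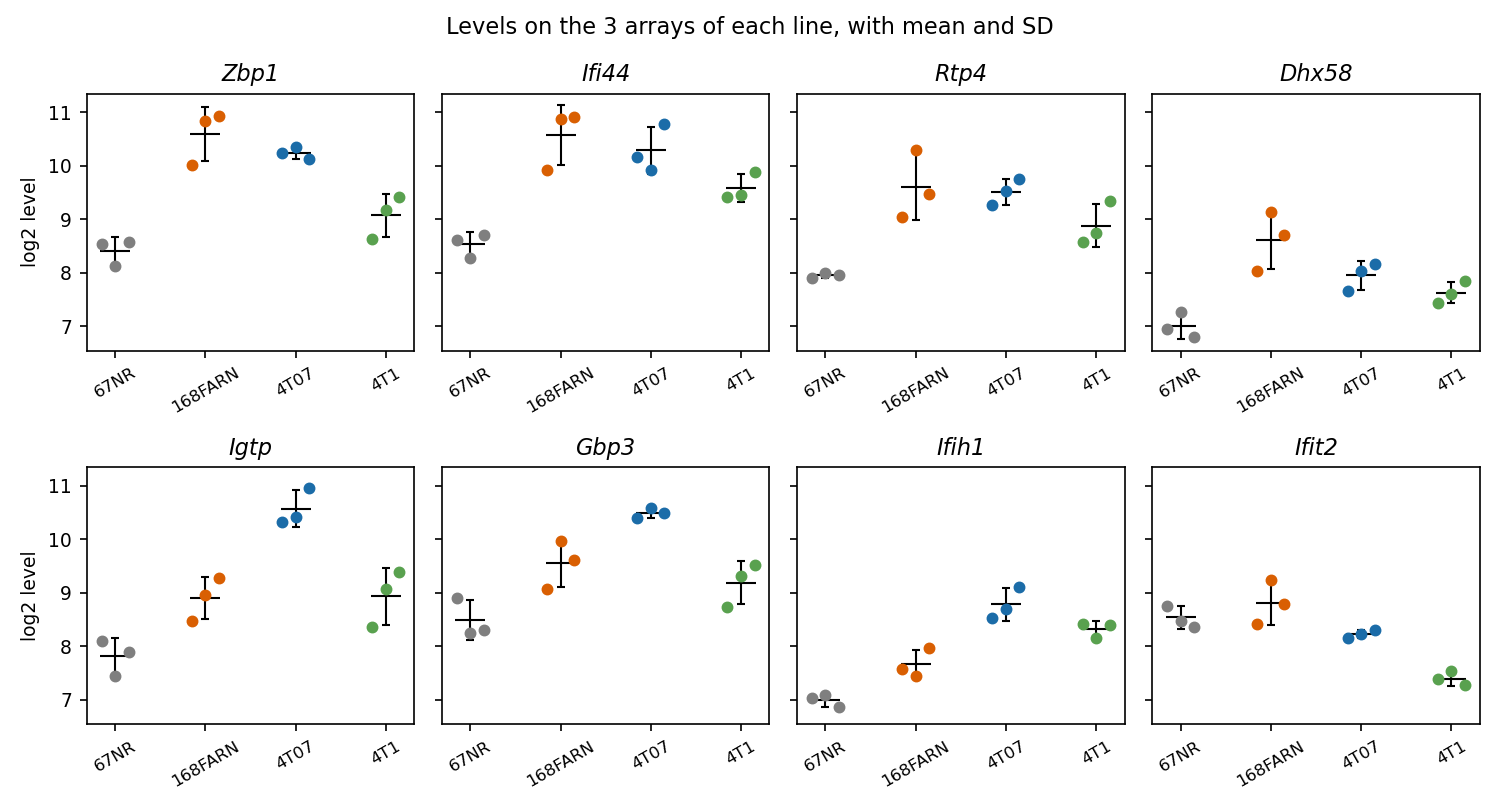
Log2 level (y axis) on each of the 3 arrays of the 4 lines (x axis) for 8 of the genes given in full; points are arrays, and black marks are the mean with its SD. Zbp1, Ifi44, Rtp4 and Dhx58 have their highest mean in 168FARN, Igtp, Gbp3 and Ifih1 in 4T07, and Ifit2 has its lowest mean in 4T1. The differences of Zbp1, Ifi44, Rtp4 and Dhx58 between 168FARN and 4T07 did not pass the test.

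Single probesets moved with their genes. In 168FARN 381 of the 383 probesets of the list were higher than in 67NR (99.5%, against 51.3% of all probesets with 1 symbol), in 4T07 366 (95.6% against 46.5%) and in 4T1 330 (86.2% against 47.3%). Probesets of 1 gene share its RNA and are not independent.

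The arrays of 1 line differed over the list, and 168FARN array 1 lay below arrays 2 and 3 in the median. The median of the 33 genes relative to the 67NR mean was 0.59, 1.14 and 1.17 on 168FARN arrays 1, 2 and 3, 1.27, 1.39 and 1.56 on 4T07, and 0.54, 0.77 and 0.93 on 4T1. Array 1 held the lowest value of its line for 31 of 33 genes in 168FARN, 25 in 4T07 and 26 in 4T1, and for 7 in 67NR. Array 3 held the highest for 20, 29 and 21 genes in those 3 lines, and for 6 in 67NR. Such counts were not taken over all genes. The median over all genes, relative to the 67NR mean, was 0.00, 0.07 and 0.05 on 168FARN arrays 1, 2 and 3. It was -0.14, 0.00 and 0.01 on 4T07, -0.06, -0.01 and -0.04 on 4T1, and 0.01, 0.03 and -0.04 on 67NR. The median SD of the 33 genes was 0.37 in 168FARN, against 0.21 over all genes, and in the other lines it was 0.19 to 0.23, against 0.16 to 0.25. Skeletal muscle markers differed over the same 168FARN arrays (5.50, 7.98 and 8.93), and fibroblast markers did not (10.78, 10.57 and 10.74). Their part in the result was not tested.

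The markers of other cells in these tumours moved with the lines too. Fibroblast markers (10 measured) had a mean level of 8.62 in 67NR, 10.70 in 168FARN, 9.62 in 4T07 and 9.35 in 4T1, and 8 of 10 were higher in 168FARN than in 67NR (13.5% of all genes). Neutrophil markers (10 measured) had 6.02, 6.28, 8.41 and 7.58, and 9 of 10 were higher in 4T07 and 6 of 10 in 4T1 than in 67NR (11.0% and 9.38% of all genes). Of 15 macrophage and monocyte markers, 6 were lower in 168FARN, 4 in 4T07 and 3 in 4T1 (11.2%, 12.7% and 13.0% of all genes). Of 14 T and NK cell markers, 5 were lower in 168FARN, 3 higher and 2 lower in 4T07, and 3 lower in 4T1, and the 2 lower in 4T07 are near the share of all genes. Endothelial markers (9 measured) had means of 8.49, 7.77, 8.10 and 8.10. Of these, 6 were lower in 168FARN (11.2% of all genes), 4 lower and 1 higher in 4T07 (12.7% and 11.0%), and 2 lower and 1 higher in 4T1 (13.0% and 9.38%). The 1 higher in each is near the share of all genes. Of 8 B and plasma cell markers, 3 were higher in 4T07 (11.0% of all genes), with a median change of 1.28. In 168FARN and 4T1 0 were called, where 13.5% and 9.38% of all genes were higher and 11.2% and 13.0% lower. At an unadjusted p under 0.05, limma gave 0 of the 8 in 168FARN (19.6% of all genes higher and 16.0% lower). It gave 3, higher, in 4T1 (13.8% and 19.3%). Dendritic cell markers (11 measured), including the plasmacytoid kind that makes type I interferon, had means of 6.51, 6.64, 6.94 and 6.86. Of these, 4 were higher and 0 lower in 4T07 than in 67NR (11.0% and 12.7% of all genes). In 4T1 2 were higher and 0 lower (9.38% and 13.0%), and in 168FARN 1 and 1 (13.5% and 11.2%). The counts in 4T1 and 168FARN are near the shares of all genes. The part of these cells in the levels of the list was not tested.

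Against 168FARN, 11 genes of the list were higher in 4T07 and 1 lower (11.4% and 16.8% of all genes), and the median change was 0.11, against -0.09 over all genes. The higher genes were Ifih1, Oasl2, Irf9, Cmpk2, Parp9, Parp14, Dtx3l and all 4 GTPases, and Ifit2 was lower. Igtp was 3.18-fold higher in 4T07 (1.67 ± 0.29, adjusted p = 0.000787), Parp14 changed by 1.28 ± 0.15 (adjusted p = 3.12e-05), Irgm1 by 1.16 ± 0.26 (adjusted p = 0.00445) and Ifih1 by 1.11 ± 0.18 (adjusted p = 0.000551). The sensors Zbp1 (-0.35 ± 0.25, adjusted p = 0.336) and Dhx58 (-0.67 ± 0.25, adjusted p = 0.0595) and the factor Irf7 (-0.39 ± 0.27, adjusted p = 0.336) did not pass the test. All 8, 15 and 12 of their probesets, in this order, were lower in 4T07. The Gbp2 call in 4T07 against 168FARN ended without 168FARN array 1 (adjusted p = 0.0641). The Gbp3 call in 4T07 against 168FARN ended without 168FARN array 1 (adjusted p = 0.064). The Ifit2 call in 4T07 against 168FARN ended without any 1 array other than 67NR array 1, 67NR array 3, 168FARN array 1, 4T1 array 2 or 4T1 array 3 (adjusted p = 0.0508 to 0.162). The median turned to -0.01 without 168FARN array 1, and it was 0.47 with that array as the only one of 168FARN, where 11 genes were higher and 0 lower (6.65% and 7.41% of all genes).

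In 4T1 against 168FARN the larger share of calls was lower, with 2 genes higher and 13 lower (11.9% and 19.3% of all genes) and a median change of -0.37, against -0.08. Ifih1 and Parp14 were higher, by 0.66 ± 0.18 (adjusted p = 0.0146) and 0.79 ± 0.15 (adjusted p = 0.00118). Zbp1 was 2.87-fold lower (-1.52 ± 0.25, adjusted p = 0.000502), Ifit2 2.68-fold lower (-1.42 ± 0.19, adjusted p = 0.000108), Oas2 changed by -1.20 ± 0.19 (adjusted p = 0.000333) and Mx1 by -1.06 ± 0.23 (adjusted p = 0.00325). The other lower genes were Dhx58, Oas3, Irf7, Stat2, Rsad2, Eif2ak2, Samd9l, Trim30a and Ifi44. None of the 4 GTPases passed the test, with changes from -0.37 to 0.30. Of the 383 probesets 85 were higher in 4T1 (22.2%, against 46.4% of all probesets). The count of 15 calls lay between 8 and 17 with 1 array left out, at 8 without 4T1 array 1 and at 9 without 168FARN array 2. Of all genes, 31.2% were called with all arrays, 24.4% without 4T1 array 1 and 25.8% without 168FARN array 2. The Ifih1 call in 4T1 against 168FARN ended without 168FARN array 2 or 4T1 array 1 or 3 (adjusted p = 0.0518 to 0.0628). The Oas3 call in 4T1 against 168FARN ended without 168FARN array 2 or 3 or 4T1 array 1, 2 or 3 (adjusted p = 0.0516 to 0.117). The Irf7 call in 4T1 against 168FARN ended without 168FARN array 2 or 3 or 4T1 array 1 or 3 (adjusted p = 0.0588 to 0.109). The Stat2 call in 4T1 against 168FARN ended without 168FARN array 3 or 4T1 array 1 (adjusted p = 0.0772 to 0.0862). The Rsad2 call in 4T1 against 168FARN ended without 67NR array 2, 168FARN array 2 or 3 or 4T1 array 1 or 3 (adjusted p = 0.051 to 0.158). The Samd9l call in 4T1 against 168FARN ended without 168FARN array 2 or 3 or 4T1 array 1 or 2 (adjusted p = 0.0712 to 0.118). The Ifi44 call in 4T1 against 168FARN ended without 168FARN array 2 or 3 or 4T1 array 1 or 2 (adjusted p = 0.0525 to 0.0689). With array 1 as the only 168FARN array, 1 gene was higher and 2 lower (7.01% and 9.43% of all genes), shares of the list no larger than those of all genes, and the median was -0.01, and without that array the median was -0.61.

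Fewer genes of any kind were called between 4T1 and 4T07. There 0 genes of the list were higher and 8 lower (0.552% and 1.82% of all genes), and the median change was -0.63, against 0.00. At an unadjusted p under 0.05, limma gave 0 higher and 24 lower (5.43% and 7.79% of all genes). The lower genes at the adjusted p were Zbp1, Oas2, Ifit2, Rsad2, Cmpk2, Parp9, Gbp3 and Igtp. Igtp was 3.1-fold lower in 4T1 (-1.63 ± 0.29, adjusted p = 0.00834), Gbp3 changed by -1.30 ± 0.26 (adjusted p = 0.0166), Cmpk2 fell by 1.00 ± 0.18 (adjusted p = 0.0084) and Parp9 by -0.77 ± 0.14 (adjusted p = 0.00926). Of the 383 probesets 28 were higher in 4T1 (7.3%, against 50.8% of all). The count of 8 lay between 1, without 4T1 array 1, and 11 with 1 array left out. It was 4 without 4T07 array 2 and 5 without 4T1 array 2. The share of all genes called fell too, from 2.38% to 1.04% without 4T1 array 1. It was 1.05% without 4T07 array 2 and 1.55% without 4T1 array 2. The Zbp1 call in 4T1 against 4T07 ended without 4T07 array 1 or 2 or 4T1 array 1 or 2 (adjusted p = 0.0672 to 0.136). The Oas2 call in 4T1 against 4T07 ended without 4T07 array 2 or 3 or 4T1 array 1, 2 or 3 (adjusted p = 0.0649 to 0.127). The Ifit2 call in 4T1 against 4T07 ended without any 1 array other than 67NR array 1, 67NR array 3, 168FARN array 1 or 168FARN array 2 (adjusted p = 0.0513 to 0.147). The Rsad2 call in 4T1 against 4T07 ended without 4T1 array 1 (adjusted p = 0.0679). The Cmpk2 call in 4T1 against 4T07 ended without 4T1 array 1 (adjusted p = 0.0567). The Parp9 call in 4T1 against 4T07 ended without 4T1 array 1 (adjusted p = 0.0522). The Gbp3 call in 4T1 against 4T07 ended without 4T07 array 2 or 4T1 array 1 (adjusted p = 0.0825 to 0.0875). The Igtp call in 4T1 against 4T07 ended in none of the 12 fits that left out 1 array.

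Interferon genes themselves gave little signal. Of 12 listed, 4 were measured, and Ifna2, Ifna11 and Ifnk lay under background in every line. Ifng, made by T and NK cells, had levels of 5.66, 5.08 and 5.26 on the 67NR arrays, 5.55, 4.79 and 4.52 on 168FARN, 6.20, 6.66 and 6.31 on 4T07 and 4.76, 5.68 and 5.33 on 4T1. All 4T07 arrays lay above all others. Ifng changed by 1.06 ± 0.28 (adjusted p = 0.0154) in 4T07 against 67NR, and its change in 4T1 was -0.08 ± 0.28 (adjusted p = 0.888). Its 168FARN mean of 4.95 lay under the background of 5.08, so no size of change is given for that line. The Ifng call in 4T07 ended without 67NR array 2 or 4T07 array 2 (adjusted p = 0.0601 to 0.0658).

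Of the 6 receptor chains, 0 passed the test in 168FARN or 4T07 against 67NR and 2 were higher in 4T1. Of all genes, 13.5% were higher and 11.2% lower in 168FARN, 11.0% and 12.7% in 4T07, and 9.38% and 13.0% in 4T1. At an unadjusted p under 0.05, limma gave 0 chains in 168FARN (19.6% of all genes higher and 16.0% lower). In 4T07 it gave 1, lower (15.0% and 19.0%), so 1 of 6 is near background. Ifnar1 and Ifnar2, the type I receptor, changed by 0.04 ± 0.17 (adjusted p = 0.911) and -0.18 ± 0.14 (adjusted p = 0.403) in 168FARN, 0.16 ± 0.17 (adjusted p = 0.577) and 0.00 ± 0.14 (adjusted p = 0.992) in 4T07, and 0.14 ± 0.17 (adjusted p = 0.614) and 0.03 ± 0.14 (adjusted p = 0.917) in 4T1. Of the interferon-gamma receptor, Ifngr1 changed by 0.16, -0.29 and -0.18 (adjusted p = 0.676, 0.434 and 0.662), and Ifngr2 by 0.00, 0.26 and 0.44 (adjusted p = 0.994, 0.216 and 0.0345). Ifnlr1, the specific chain of the type III receptor of epithelia, had levels of 4.59, 4.92 and 4.85 on the 67NR arrays, 4.72, 4.85 and 4.92 on 168FARN, 5.01, 4.86 and 5.56 on 4T07 and 5.45, 5.59 and 5.75 on 4T1. Its 67NR and 168FARN arrays lay under the background of 5.08, and it rose in 4T1 by 0.81 ± 0.18 (adjusted p = 0.00604). Il10rb, its partner, changed by -0.02, -0.42 and -0.42 (adjusted p = 0.955, 0.0927 and 0.0975). The Ifngr2 call in 4T1 ended without 67NR array 1, 2 or 3 or 4T1 array 1, 2 or 3 (adjusted p = 0.0571 to 0.106).

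Of 18 measured kinases, factors and adaptors of the pathway, 2 were higher and 2 lower in 168FARN, 6 and 2 in 4T07, and 5 and 2 in 4T1 against 67NR. The shares of all genes were 13.5% and 11.2%, 11.0% and 12.7%, and 9.38% and 13.0%, so the 168FARN counts and the lower counts are near background. Irf1, the main early factor of the interferon-gamma response, had levels of 9.79, 9.52 and 9.61 on the 67NR arrays, 9.42, 9.80 and 9.66 on 168FARN, 10.82, 10.83 and 11.23 on 4T07 and 10.24, 10.60 and 10.54 on 4T1. The 168FARN arrays overlapped 67NR, the 4T1 arrays lay above both, and the 4T07 arrays lay above all others. Irf1 changed by -0.02 ± 0.17 (adjusted p = 0.959) in 168FARN, 1.32 ± 0.17 (adjusted p = 7.9e-05) in 4T07 and 0.82 ± 0.17 (adjusted p = 0.00313) in 4T1. Jak2, a kinase of the interferon-gamma receptor, changed by -0.23 ± 0.24 (adjusted p = 0.557), 1.13 ± 0.24 (adjusted p = 0.00423) and 1.52 ± 0.24 (adjusted p = 0.000537). Sting1, the adaptor that relays cytosolic DNA sensing, rose in all 3, by 1.03 ± 0.17 (adjusted p = 0.000832), 1.07 ± 0.17 (adjusted p = 0.000521) and 0.89 ± 0.17 (adjusted p = 0.0022). These calls of Irf1, Jak2 and Sting1 were kept with any 1 array left out, and with array 1 as the only 168FARN array the Sting1 change there was 0.69 ± 0.22 (adjusted p = 0.0677). The lower genes, named after their values were seen, were Jak1 in all 3 lines, Cgas in 168FARN and Tlr7 in 4T07 and 4T1. Jak1, a kinase of both the type I and the interferon-gamma receptor, changed by -0.79 ± 0.13 (adjusted p = 0.000823), -0.75 ± 0.13 (adjusted p = 0.00112) and -0.59 ± 0.13 (adjusted p = 0.00593). In each line 0 of its 28 probesets were higher than in 67NR, and its calls were kept with any 1 array left out and, in 168FARN, with array 1 alone (-0.73 ± 0.19, adjusted p = 0.0302).

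Among 10 genes that curb the response or degrade its nucleic acid triggers, 2 were higher and 2 lower in 168FARN, 2 and 0 in 4T07, and 1 and 1 in 4T1 against 67NR, counts of 0 to 2 that lie near the same shares of all genes. Socs1, an inhibitor of the receptor kinases, fell by 1.00 ± 0.21 in 168FARN (adjusted p = 0.00316) and in 4T1 (-0.98 ± 0.21, adjusted p = 0.00363), with a change of -0.37 ± 0.21 (adjusted p = 0.236) in 4T07. Ptpn1, a phosphatase of the kinases, fell in 168FARN (-1.13 ± 0.19, adjusted p = 0.000763), with changes of -0.33 ± 0.19 (adjusted p = 0.253) and -0.35 ± 0.19 (adjusted p = 0.224) in 4T07 and 4T1. With array 1 as the only 168FARN array, Socs1 changed by -1.20 ± 0.30 (adjusted p = 0.0243) and Ptpn1 by -0.88 ± 0.20 (adjusted p = 0.0155). Samhd1, which depletes nucleotides and restricts retroviruses, rose in 4T07 (1.02 ± 0.15, adjusted p = 0.000229), with changes of -0.14 ± 0.15 (adjusted p = 0.569) and 0.32 ± 0.15 (adjusted p = 0.146) in 168FARN and 4T1.

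Genes known for their response to interferon-gamma were higher in 4T07 than in the other 3 lines in their mean level (9.98, against 8.04 in 67NR, 8.49 in 168FARN and 8.95 in 4T1). Of 12 listed, 10 were measured, and all 10 were higher in 4T07 than in 67NR (11.0% of all genes), with a median change of 2.00. Of all genes, 13.5% were higher and 11.2% lower than 67NR in 168FARN, and 9.38% and 13.0% in 4T1. A count of 1 lower gene of 10 is thus near background. In 168FARN 4 were higher and 1 lower (median 0.57), or 2 and 0, Psmb8 and Psmb9, with array 1 as its only array (median 0.38), and in 4T1 6 were higher and 0 lower (0.78). Gbp4, a guanylate-binding GTPase, had levels of 9.63, 8.59 and 8.67 on the 67NR arrays, 8.51, 8.72 and 8.87 on 168FARN, 11.52, 11.39 and 11.68 on 4T07 and 9.32, 10.04 and 10.13 on 4T1. Cxcl9, a chemokine that draws T cells, had levels of 8.57, 7.52 and 7.47 on the 67NR arrays, 6.91, 6.99 and 7.51 on 168FARN, 9.69, 9.79 and 9.85 on 4T07 and 7.66, 9.05 and 8.65 on 4T1. In both genes the 4T07 arrays lay above all others, and 67NR array 1 was the highest of its line. Gbp4 was 5.93-fold higher in 4T07 than in 67NR (2.57 ± 0.27, adjusted p = 1.53e-05) and 7.11-fold higher than in 168FARN (2.83 ± 0.27, adjusted p = 6.59e-06). Cxcl9 changed by 1.92 ± 0.34 (adjusted p = 0.0011) and 2.64 ± 0.34 (adjusted p = 8.73e-05). Between 4T07 and 168FARN 8 of the 10 were higher and 0 lower (median 1.58, 11.4% and 16.8% of all genes), and with array 1 as the only 168FARN array again 8 and 0 (median 1.78). Ciita, the switch of class II genes, was lower in 168FARN than in 67NR (-0.94 ± 0.22, adjusted p = 0.00629, and -0.91 ± 0.31, adjusted p = 0.0865, with array 1 alone) and higher in 4T07 (1.10 ± 0.22, adjusted p = 0.00217).

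The other genes of this group are Cxcl10, Gbp5, Irgm2, Iigp1 and the antigen-processing genes Tap1, Psmb8 and Psmb9. Psmb8 and Psmb9, subunits of the immunoproteasome, rose in all 3 lines, by 2.16, 2.41 and 2.03 and by 1.46, 1.82 and 1.06 in 168FARN, 4T07 and 4T1 (largest adjusted p = 0.00174), and they were the pair of the group that did not pass between 4T07 and 168FARN. Their changes there were 0.25 ± 0.20 (adjusted p = 0.401) and 0.36 ± 0.20 (adjusted p = 0.213). Against 67NR in 4T07, Irgm2 rose by 2.34 ± 0.19 (adjusted p = 1.69e-06), Iigp1 by 2.32 ± 0.32 (adjusted p = 0.000152), Gbp5 by 2.08 ± 0.24 (adjusted p = 3.54e-05), Tap1 by 1.66 ± 0.17 (adjusted p = 1.45e-05) and Cxcl10 by 1.17 ± 0.26 (adjusted p = 0.00512). In 4T1 against 4T07, 5 of the 10 were lower and 0 higher (Gbp4, Gbp5, Irgm2, Iigp1 and Tap1, median -1.08), against 1.82% and 0.552% of all genes. The 10 calls of 4T07 against 67NR and the 8 against 168FARN were kept with any 1 array left out. The Irgm2 call in 168FARN ended without 67NR array 3 or 168FARN array 2 (adjusted p = 0.0527 to 0.0584). The Gbp4 call in 4T1 ended without 67NR array 2 or 3 or 4T1 array 2 or 3 (adjusted p = 0.116 to 0.147). The Gbp5 call in 4T1 ended without any 1 array other than 67NR array 1, 168FARN array 1, 4T07 array 1, 4T07 array 3 or 4T1 array 1 (adjusted p = 0.0502 to 0.162). The Gbp5 call in 4T1 against 4T07 ended without 4T07 array 2 (adjusted p = 0.0514). The Iigp1 call in 4T1 against 4T07 ended without 4T07 array 2 or 3 or 4T1 array 1 or 2 (adjusted p = 0.0629 to 0.123). The Tap1 call in 4T1 against 4T07 ended without 4T07 array 2 or 4T1 array 1 (adjusted p = 0.0594 to 0.0639). Of 14 T and NK cell markers, 9 were higher in 4T07 than in 168FARN and 0 lower (11.4% and 16.8% of all genes). Against 67NR, 3 were higher and 2 lower in 4T07 (11.0% and 12.7%). The part of T and NK cells in these levels was not tested.

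**Figure D5:**
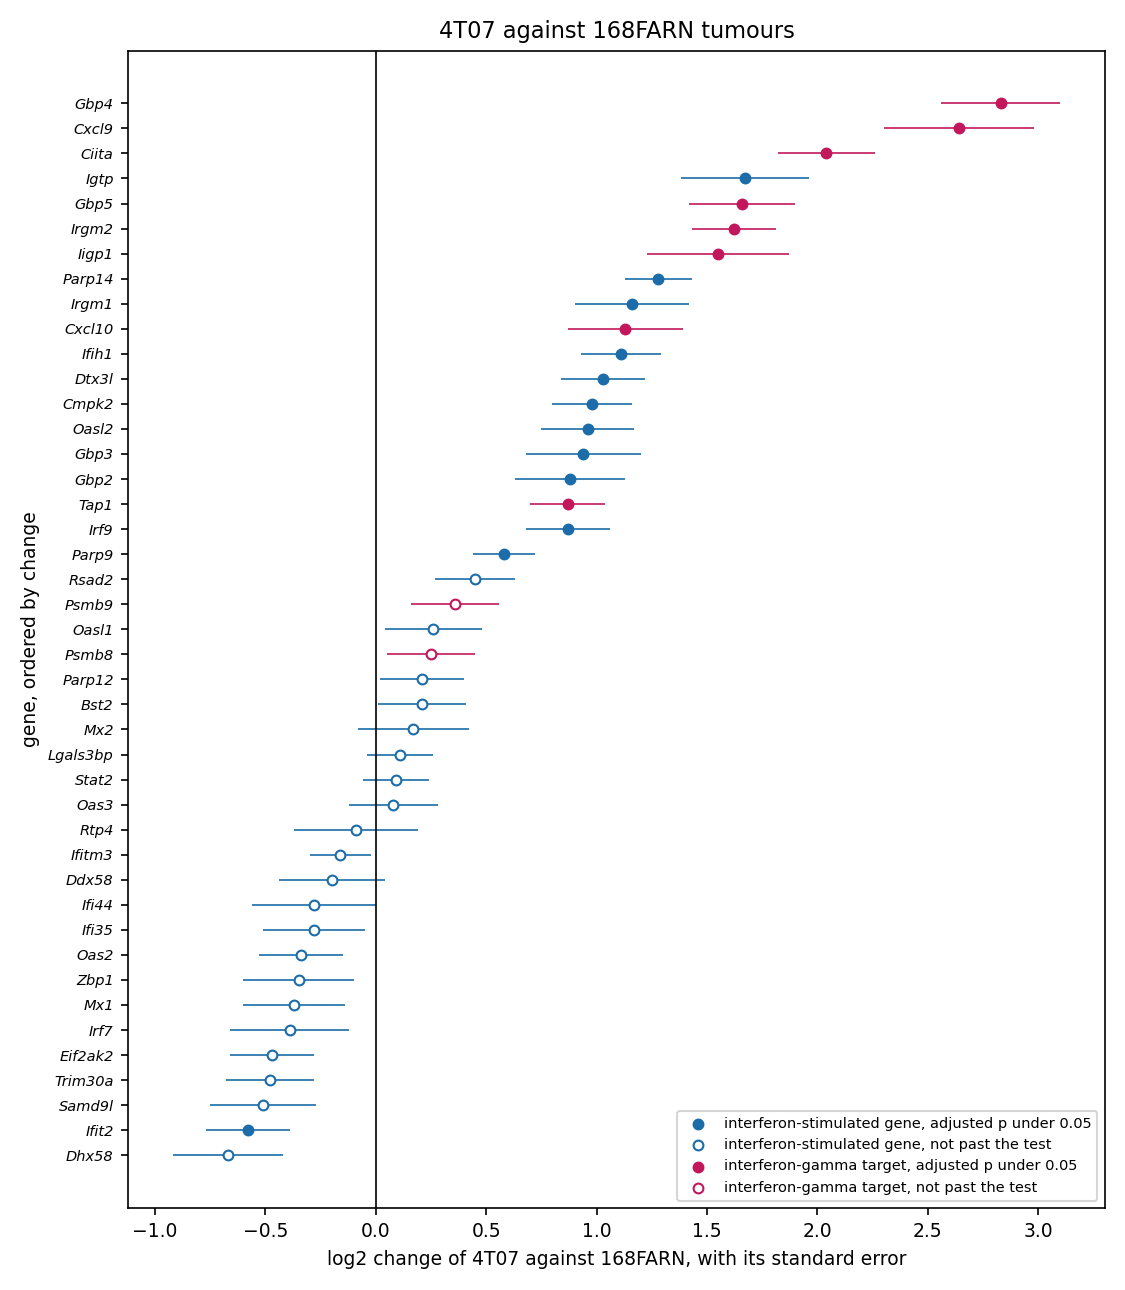
Log2 change of 4T07 against 168FARN with its standard error (x axis) for the 33 interferon-stimulated genes and the 10 interferon-gamma targets (y axis, ordered by change), 3 arrays a line. Filled points passed the test: 11 of the 33 and 8 of the 10 to the right of 0, and Ifit2 to its left.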

How the data were processed

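Values were log2 levels per probeset from 12 mouse exon arrays, taken as the authors deposited them; the steps from scanner signal to these values are not given in the sources used here, and per the labels' protocols RNA was extracted with Trizol and labelled with biotin. Of 228090 probesets, 207232 carried 1 gene symbol in GEO's platform annotation, 3882 several and 16976 none. Of the symbols, 14055 were current in RefSeq, 2111 were updated and 41 kept as given. A gene's level was the median of its probesets with 1 symbol, for genes with at least 3. The members and the lists of pathway genes and cell markers were chosen with earlier results of these data known. One limma fit (version 3.58.1, R 4.3.3) of all 12 arrays, with 1 mean per line and no covariate, gave the 6 comparisons and the F-test. P-values were adjusted by Benjamini-Hochberg over 15025 genes, and a gene was called at an adjusted p under 0.05. Every limma p in the text is of this kind unless it is named as unadjusted or comes from another fit. Those of Ifit1 and Ifit3 come from the fit of 16185 genes with 1 or more probesets. Those without an array, or with 168FARN array 1 alone, come from fits of fewer arrays, adjusted over the same 15025 genes. The 3 arrays per line limit the precision. Genes given on all arrays are the 4 with the largest called change in each comparison with 67NR and the 4 with the highest and the 4 with the lowest mean level; Parp14 and the pathway genes given that way were chosen after their values were seen. Pathway genes are named when called with a change of at least 1 against 67NR, and every receptor and Irf1 is named. An item of the naming rule is not reported here. Over all genes, deviations of same-numbered arrays of different lines had correlations from -0.086 to 0.191 (18 pairs, median 0.012, 3 above 0.1). The 36 pairs with different numbers had correlations from -0.16 to 0.224 (median -0.009, 2 above 0.1). These values cover all genes and do not settle whether the genes of the list share an order of arrays. Promoter windows came from RefSeq, build GRCm38.p6.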

Additional observations from a re-analysis of the deposited data

How the results depend on the processing

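The filter on dim genes left Rsad2, Cmpk2, Mx1 and Mx2 untested. Of the called genes that every alternative tested, 7 of 25 in 168FARN, 20 of 23 in 4T07 and 12 of 18 in 4T1 stayed called against 67NR in all of them. The counts were 7 of 11 in 4T07 and 3 of 13 in 4T1 against 168FARN, and 1 of 6 in 4T1 against 4T07. Without the fit on 168FARN array 1 alone, the 7 of 25 became 15 and the 3 of 13 became 7. The alternatives were the mean of probesets, a filter on dim probesets, quantile normalization, equal array medians, a filter on dim genes, genes with 1 or more probesets, a trended robust variance, array weights, fits of 2 lines, the replicate block and leaving out arrays. With 1 array left out, the number of calls against 67NR ranged from 17 to 30 (168FARN), 23 to 28 (4T07) and 12 to 23 (4T1). Against 168FARN it was 11 to 13 (4T07) and 8 to 17 (4T1), and between 4T1 and 4T07 it was 1 to 11. The share of all genes called in those fits against 67NR was 18.6% to 27.2% (168FARN), 17.1% to 23.8% (4T07) and 16.2% to 24.5% (4T1). Against 168FARN it was 22.2% to 27.5% (4T07) and 24.4% to 34.1% (4T1), and between 4T1 and 4T07 1.04% to 3.53%. The median change of the list in 4T07 against 168FARN ranged from -0.01, without 168FARN array 1, to 0.25. In 4T1 against 168FARN it ranged from -0.61, without the same array, to -0.24. With 168FARN array 1 as its only array, 7 genes were called against 67NR (median 0.59), 3 in 4T1 against 168FARN (median -0.01), and the median in 4T07 against 168FARN was 0.47. The cause was not tested. No named gene changed sign while called. The labels do not say whether replicate numbers pair the samples. Array 1 held the lowest value of its line for 31 (168FARN), 25 (4T07), 26 (4T1) and 7 (67NR) of the 33 genes. The same count was not taken over all genes, whose median was also lowest on array 1 in 168FARN, 4T07 and 4T1. The cause of this order was not tested. With the replicate block the genes higher than 67NR numbered 29 (168FARN), 27 (4T07) and 19 (4T1).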
